A study of Mus musculus with 2 samples.

Results

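Ly6c2 monocytes were the barcodes of both deposited droplet libraries that were chosen by their own transcript counts, with at least 2 UMIs of Ly6c2, at least 2 of Csf1r plus Ccr2, at most 2 of C1qa, C1qb and C1qc together, 0 of Siglech, at most 1 of Cd3d, Cd3e and Cd3g together, and less than 10% of the gene UMIs from S100a8 plus S100a9. A UMI (unique molecular identifier) marks 1 captured transcript, and a barcode marks 1 droplet, usually 1 cell. After assignment to a treatment group, 362 of the 14421 barcodes were Ly6c2 monocytes. The liver-labelled library held 185 of them among 9591 barcodes, and the spleen-labelled library held 177 among 4830. Before assignment the numbers were 197 and 186.

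The mice were female BALB/cAnNCrl, 7 to 8 weeks old when bought, and all carried liver metastases of 4T1, a mouse mammary carcinoma line, seeded by injection into the spleen with removal of the injected pole. Each received one hepatic arterial infusion, a regional route into the artery that feeds liver tumors, of vehicle (5% dextrose) or of CBL0137 at one of the doses that the labels call low and high. CBL0137 is a curaxin, a small molecule that binds DNA and loosens its contact with histones. Cells were taken 5 days later and 2 mice were pooled per group, so every group was 1 pooled sample in each library. Neither an error between mice nor a test was therefore possible, and the intervals below are exact 95% intervals that cover counting error only. The amount behind either dose was not used here. The labels describe leukocytes from digested tissue, while the methods describe cells bound to CD11b beads.

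Classical monocytes of the mouse, which carry high Ly6C on their surface, are made in the bone marrow and also in the spleen of tumor-bearing animals from progenitors shared with neutrophils. The chemokine receptor CCR2 lets them leave the marrow and enter inflamed or tumor tissue, where they give rise to macrophages and to monocytic cells that restrain T cells. CSF1R, the receptor of the growth factor CSF1, sustains their survival and maturation.

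The treatment of each barcode was read from hashtag oligonucleotides, short DNA tags on antibodies that stain all cells of a group before the groups are mixed. They are shown because every comparison rests on telling them apart, and the whole tag is the part that is read.
A0301, vehicle: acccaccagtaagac
A0305, low dose: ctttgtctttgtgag
A0310, high dose: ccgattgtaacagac
Each tag has 15 bases, and a barcode was assigned to the hashtag with the most UMIs when it had at least 10 and at least 3 times the next hashtag. This assigned 8911 barcodes of the liver-labelled library and 4483 of the spleen-labelled library. The libraries shared 15 barcodes, of which 0 were monocytes in the liver-labelled library and 1 in the spleen-labelled library.

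The tissue labels went against the transcripts. Clec4f, a marker of the resident macrophages of the liver, and Alb, the albumin gene of hepatocytes, had 0 UMIs of 72524511 in the liver-labelled library, so at most 0.0414 CPM (counts per 1000000 UMIs) could have been missed. They were at 133 and 30.7 CPM of 33857729 UMIs in the spleen-labelled library. Cr2 plus Fcer2a, genes of mature follicular B cells that are plentiful in spleen, were at 53 CPM in the liver-labelled library and 14.1 CPM in the other. In the names of the deposited matrices, too, liver and spleen are swapped relative to the labels. Both libraries are named here by their labels only, so liver-labelled may stand for spleen and spleen-labelled for liver, and no direction is drawn from the tissue.

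The monocytes carried their markers. F13a1 (ENSMUSG00000039109, chr13:36867178-37050244, minus strand, GRCm38), the clotting factor XIII A chain, and Ms4a4c (ENSMUSG00000024675, chr19:11404770-11427246, plus strand), a membrane protein gene of classical monocytes, were not used by the rule. In the liver-labelled library 109 of 110 monocytes under vehicle had at least 1 UMI of either, as did 50 of 54 under the low dose and 18 of 21 under the high dose. The spleen-labelled library gave 69 of 70, 66 of 68 and 38 of 39. F13a1 was at 889 CPM in the monocytes of the liver-labelled library, against 17.4 in neutrophils, 97.0 in C1q macrophages and 0.771 in T cells. The spleen-labelled library had F13a1 at 755 CPM in monocytes, against 23.3, 125 and 0.631 in the same classes. Ms4a4c set monocytes apart less well. It was at 288 and 306 CPM in monocytes of the liver-labelled and spleen-labelled libraries and at 3.25 and 4.97 CPM in neutrophils. Conventional dendritic cells had 102 and 246 CPM of Ms4a4c, and B cells 111 and 156 CPM. Ly6g, the surface marker of neutrophils, was at 2.64 and 0.628 CPM in the monocytes of the liver-labelled and spleen-labelled libraries, and at 580 and 527 CPM in neutrophils. Flt3, a receptor of dendritic cells, was at 3.85 and 3.46 CPM in monocytes and at 186 and 199 CPM in the conventional dendritic cells, whose gate used it. The comparison classes were gated in the same way, by S100a8 plus S100a9 for neutrophils, C1q for macrophages, Flt3 with H2-Aa for dendritic cells, Cd79a plus Cd79b for B cells and Cd3 for T cells.

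**Figure D1:**
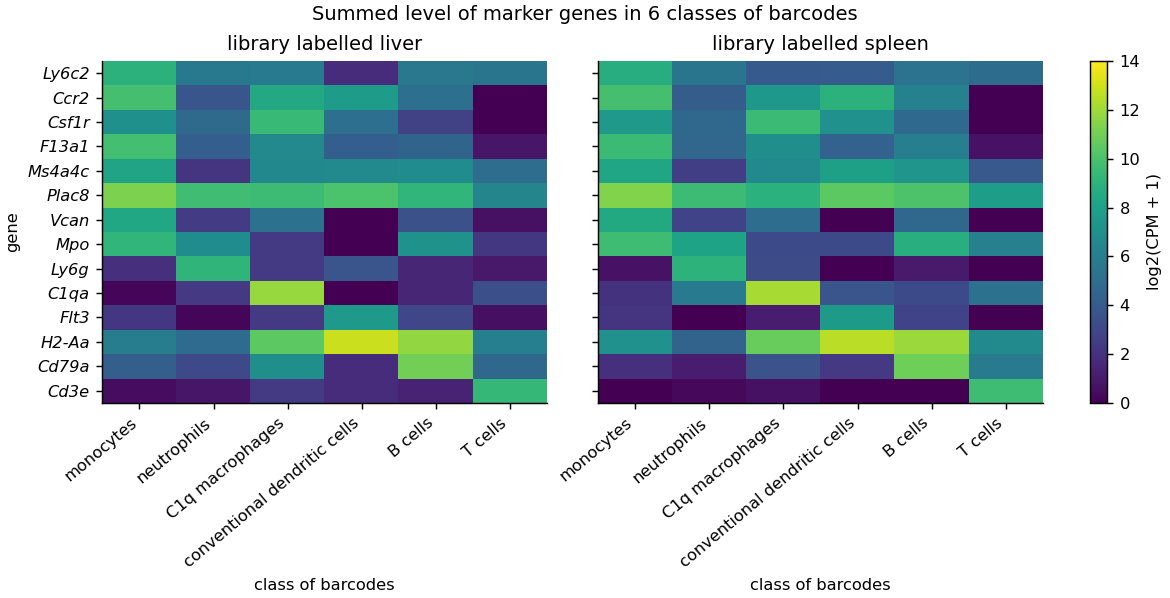
Summed level of 14 marker genes in 6 classes of barcodes of each library, as log2(CPM + 1) in color, with genes in rows and classes in columns. F13a1 and Ms4a4c were at 889 and 288 CPM in the monocytes of the liver-labelled library, and Mpo, a gene of early neutrophil and monocyte development, was at 590 CPM there.

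The gate had an edge. Ly6c2 was at exactly 2 UMIs in 22 monocytes of the liver-labelled library and 37 of the spleen-labelled library, and a further 33 and 41 barcodes with 1 UMI met all other conditions. The median F13a1 level was 769 CPM at 2 UMIs and 382 CPM at 1 UMI in the liver-labelled library, and 575 and 288 CPM in the spleen-labelled library. Csf1r plus Ccr2 were at exactly 2 UMIs in 6 and 2 monocytes, and 7 and 5 barcodes with 1 UMI lay just outside. S100a8 plus S100a9 took 5 to 10% of the UMIs in 13 and 17 monocytes, while 8 and 2 barcodes at 10 to 20% met all other conditions.

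The gate asks for fixed UMI counts, so it favors deep barcodes and may miss shallow monocytes. The chosen monocytes were deep. Their median was 23366, 18034 and 22644 UMIs in the vehicle, low dose and high dose groups of the liver-labelled library, compared with 4440.5, 4566.5 and 4806 over all assigned barcodes. In the spleen-labelled library the monocyte medians were 13413.5, 16198 and 15468 UMIs, against 5449, 4791.5 and 2667. The UMIs summed over the monocytes of a group came to 3046949, 1374053 and 508393 in the liver-labelled library and to 1215890, 1317066 and 650501 in the spleen-labelled library. The high dose values thus rest on the fewest cells and transcripts in both libraries. In the following, 3 values in a row are those of the vehicle, the low dose and the high dose.

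Monocytes took a smaller share of the barcodes at each higher dose in both libraries. In the liver-labelled library they were 110 of 3360, 54 of 3408 and 21 of 2143 assigned barcodes. These are 3.27% (2.70 to 3.93), 1.58% (1.19 to 2.06) and 0.980% (0.608 to 1.49). The spleen-labelled library gave 70 of 820, 68 of 1318 and 39 of 2345, which are 8.54% (6.71 to 10.7), 5.16% (4.03 to 6.50) and 1.66% (1.19 to 2.27). The intervals of the vehicle and the high dose did not overlap in either library, and those of the low and high dose overlapped in the liver-labelled library only. Some of these intervals overlapped under other settings. With barcodes thinned to 2000 UMIs before gating, 18, 8 and 3 monocytes of the liver-labelled library and 12, 12 and 9 of the spleen-labelled library remained, and the intervals of all 3 groups overlapped in each. The thinned shares were 0.610%, 0.268% and 0.167%, and 1.87%, 1.11% and 0.619%, in the same order. Overlap among so few barcodes cannot show whether the difference depends on depth. The high dose share of the spleen-labelled library was 3.58% (2.45 to 5.05) with HTODemux of Seurat as the caller, which overlapped the low dose at 5.15% (4.01 to 6.49), and 3.11% when barcodes with fewer than 200 genes or with 10% or more mitochondrial UMIs were dropped. The vehicle share there was 8.27% (6.48 to 10.4) with HTODemux, apart from that of the high dose.

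**Figure D2:**
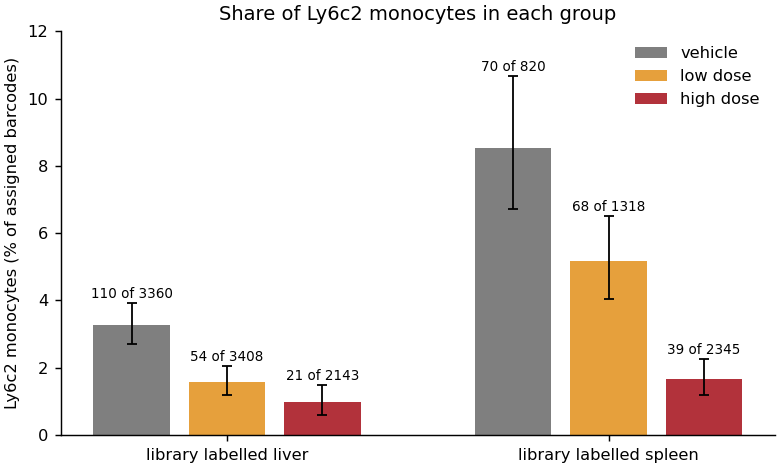
Share of Ly6c2 monocytes in percent of the assigned barcodes of each group and library, with exact 95% Clopper-Pearson intervals as error bars and the number of barcodes above each bar. The bars go from 3.27% to 0.980% in the liver-labelled library and from 8.54% to 1.66% in the spleen-labelled library.

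A share also moves with the other cells of its library. T cells were 17.9%, 25.3% and 46.4% of the assigned barcodes of the liver-labelled library, and neutrophils were 32.4%, 30.9% and 8.59%. In the spleen-labelled library, C1q macrophages were 7.32%, 7.89% and 12.6% and neutrophils were 33.3%, 38.6% and 7.80%. Per 100 T cells there were 18.2, 6.26 and 2.11 monocytes in the liver-labelled library and 219, 101 and 21.7 in the spleen-labelled library, the same order as the share. Per 100 neutrophils there were 10.1, 5.13 and 11.4 monocytes in the liver-labelled library and 25.6, 13.4 and 21.3 in the spleen-labelled library, so against neutrophils the low dose was lowest and the high dose was near the vehicle. Which of the cell types was lost or gained in number cannot be told from shares.

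Ccr2, F13a1 and Plac8, genes of classical monocytes, differed little in level, while Ms4a4c, Csf1r and Ly6c2 differed more. Ccr2 was at 922, 975 and 1011 CPM in the liver-labelled library and 955, 892 and 1068 in the spleen-labelled library, with log2 ratios of high dose to vehicle of 0.13 (-0.01 to 0.27) and 0.16 (0.02 to 0.30). F13a1 was at 910, 841 and 895 CPM and at 756, 782 and 701 CPM. Plac8, a small cysteine-rich protein gene of early monocytes and neutrophils, was at 2494, 2061 and 2618 CPM and at 2682, 2396 and 2755 CPM. None of the 3 passed 2-fold at either dose in either library. Ms4a4c was at 272, 295 and 362 CPM and at 285, 270 and 417 CPM, with the high dose highest in both libraries. Csf1r was at 123, 143 and 122 CPM and at 189, 154 and 235 CPM. Since Ccr2, Csf1r and Ly6c2 were used to choose the barcodes, their levels are a description of the chosen cells.

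Ly6c2 (ENSMUSG00000022584, chr15:75108158-75111970, minus strand), which encodes one of the Ly6C surface proteins, was at 572, 439 and 419 CPM in the liver-labelled library and 516, 340 and 437 in the spleen-labelled library, and was highest in the vehicle in both. The value per cell ranged from 49.2 to 1592 CPM around a median of 510 in the 110 vehicle monocytes of the liver-labelled library, and from 139 to 882 around 366 in the 21 high dose monocytes. Its neighbor Ly6c1 on chromosome 15 is a near-identical copy, and reads of the pair may be split, so the level of either is uncertain. Ly6c1 was at 213, 169 and 128 CPM and at 139, 109 and 135 CPM.

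Of 19 listed genes of classical monocytes, 17 reached 50 UMIs over the vehicle and high dose groups in each library. At the high dose 2 of them were at least 2-fold higher and 0 lower in the liver-labelled library, where 2.66% of 6388 tested genes were higher and 4.3% lower. Without barcodes of cytotoxic or plasma cell genes it was 1 of 17, Vcan. The spleen-labelled library had 1 higher and 0 lower, against 3.27% and 4.36% of 4520 genes. The list medians were 0.07 and 0.16 on the log2 scale, beside 0.01 and -0.01 over all tested genes. Vcan, the matrix proteoglycan versican, was past 2-fold in both libraries, at 281, 311 and 616 CPM and at 249, 361 and 547 CPM. Both log2 ratios were 1.13, with intervals of 0.94 to 1.32 and 0.91 to 1.36. Among barcodes with 0 UMIs of the division genes Mki67 and Top2a, Vcan passed 2-fold in neither library. Its ratio there was -0.054 (-0.48 to 0.35) in the liver-labelled library.

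The 16 listed genes of nonclassical monocytes, the patrolling cells with low Ly6C, summed to 368, 485 and 659 CPM and to 584, 545 and 739 CPM. Pou2f2, a transcription factor that B cells also carry, was at 102, 162 and 112 CPM and at 110, 139 and 146 CPM. Nr4a1, a nuclear receptor these cells need and also an immediate early gene, was at 10.5, 13.8 and 19.7 CPM and at 146, 128 and 106 CPM, where it led the list in the vehicle. Fcgr4, an activating Fc receptor, was at 44.3, 42.9 and 51.1 CPM and at 97.9, 45.6 and 157 CPM, and Spn, the sialoprotein CD43, at 55.1, 58.9 and 66.9 CPM and at 43.6, 46.3 and 26.1 CPM. So some members were well detected and others scarce. Ace, the angiotensin-converting enzyme gene that marks them, had 2, 5 and 3 UMIs in the liver-labelled library and 0, 2 and 4 in the spleen-labelled library. Treml4, a receptor of the same cells, had 9, 17 and 8 UMIs and 8, 8 and 20. Cx3cr1, the fractalkine receptor, was at 20.7, 23.3 and 29.5 CPM and at 11.5, 41.8 and 18.4 CPM. Of the 16 listed genes 7 could be tested at the high dose in each library, of which 1 was higher and 0 lower in each, Pglyrp1 in the liver-labelled library and Cd9 in the spleen-labelled library, beside 2.66% and 3.27% of all tested genes higher. Without barcodes of cytotoxic or plasma cell genes the spleen-labelled library had 0 of 6 higher and 1 lower, Spn at -1.01, as Cd9 then had 49 UMIs, below the minimum.

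The monocytes did not form 1 uniform state, since part of them carried transcripts of dividing cells together with those of granule proteases. Mki67 (ENSMUSG00000031004, chr7:135689784-135716361, minus strand) encodes a protein of the chromosome surface in dividing cells and Top2a a topoisomerase that untangles DNA before division. A UMI of either was present in 70 of 110, 28 of 54 and 10 of 21 monocytes of the liver-labelled library and in 34 of 70, 36 of 68 and 14 of 39 of the spleen-labelled library. These barcodes were deeper, with median UMIs of 35829, 36386 and 29890.5 against 14958.5, 14414 and 14412 for the rest in the liver-labelled library, and of 24018, 23932.5 and 15942.5 against 10308, 12454 and 15055 in the spleen-labelled library. Mpo (ENSMUSG00000009350, chr11:87793581-87804413, plus strand) encodes myeloperoxidase, and Elane, Prtn3 and Ctsg encode the serine proteases that progenitors of neutrophils and monocytes pack into granules. Between 98.6% and 100% of the Mpo UMIs of a group lay in barcodes with an Mki67 or Top2a UMI, as did 93.1% to 100% of those of Elane, 82.6% to 97.0% of those of Prtn3 and 98.7% to 100% of those of Ctsg. Of all gene UMIs of a group, 39.9% to 79.9% lay in these barcodes, and so did 38.4% to 84.2% of those of Ly6c2.

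After thinning to 1000 UMIs per barcode, 28.2% (20.0 to 37.6), 25.9% (15.0 to 39.7) and 14.3% (3.05 to 36.3) of the monocytes of the liver-labelled library had an Mki67 or Top2a UMI. The shares in the spleen-labelled library were 21.4% (12.5 to 32.9), 20.6% (11.7 to 32.1) and 7.69% (1.62 to 20.9). Unthinned they were 63.6%, 51.9% and 47.6%, and 48.6%, 52.9% and 35.9%. The high dose was lowest in both libraries, but its thinned interval overlapped that of the vehicle in each, so the difference in the share of such cells was not detectable at this depth. T cells, which can divide themselves, gave 1.17%, 1.17% and 2.03% at median depths of 4811, 4684 and 5047 UMIs and 6.25%, 15.4% and 13.5% at 4526.5, 4267 and 3788.5 UMIs. The high dose share of the spleen-labelled library thus lay below that of T cells and is read no further. A UMI of the 4 granule genes was found after thinning in 61.8%, 40.7% and 47.6% of monocytes and in 51.4%, 48.5% and 38.5%, against 0.335% to 1.32% and 1.54% to 6.25% of T cells.

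**Figure D3:**
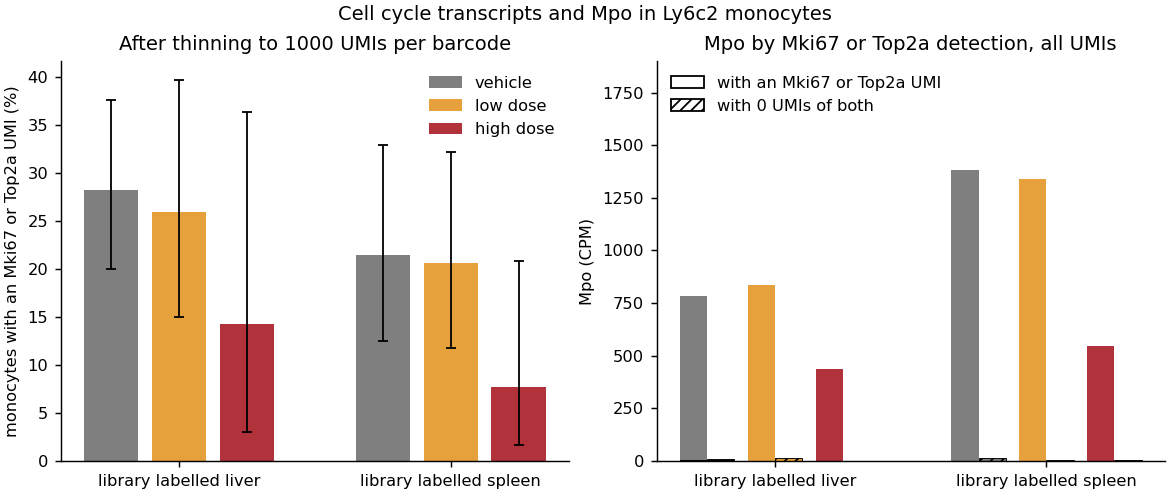
Left, percent of Ly6c2 monocytes with an Mki67 or Top2a UMI after thinning to 1000 UMIs, with exact 95% intervals as error bars. Right, Mpo in CPM, summed over barcodes with such a UMI (plain bars) and over barcodes with 0 UMIs of both (hatched bars). Mpo lay almost wholly in the first kind, at 784, 837 and 437 CPM in the liver-labelled library and 1384, 1338 and 547 CPM in the spleen-labelled library.

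Summed over all monocytes, 19 of 23 tested cell cycle genes were at least 2-fold lower at the high dose in the spleen-labelled library. In the liver-labelled library 3 of 23 were. Of all tested genes, 4.36% were lower in the spleen-labelled library and 4.3% in the liver-labelled library. Mki67 was at 375, 276 and 201 CPM in the liver-labelled library and at 310, 292 and 73.8 CPM in the spleen-labelled library, with log2 ratios of high dose to vehicle of -0.90 (-1.21 to -0.61) and -2.07 (-2.54 to -1.63). Top2a was at 421, 290 and 177 CPM and at 386, 316 and 120 CPM, with ratios of -1.25 and -1.69. Ccna2, the cyclin of DNA replication, was at 163, 143 and 76.7 CPM and at 130, 122 and 38.4 CPM. The high dose was lowest for each of these genes in both libraries, with the low dose in between.

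Of 24 listed cell cycle genes, 23 were tested at the high dose. The liver-labelled library had 3 at least 2-fold lower and 0 higher, with a median of -0.60, against 4.3% of all tested genes lower. In the spleen-labelled library 19 were lower and 0 higher, with a median of -1.37, against 4.36% of all tested genes lower. At the low dose 0 of 23 passed 2-fold either way in either library, with medians of -0.28 and -0.07. The background at the low dose was 1.01% higher and 0.883% lower of 6908 genes in the liver-labelled library, and 0.693% higher and 0.584% lower of 5482 in the spleen-labelled library. The minichromosome maintenance genes Mcm2 to Mcm7, which load the replicative helicase, were all among the 19 lower genes of the spleen-labelled library, between -1.95 for Mcm7 and -1.17 for Mcm6. These 6 genes lay between -0.55 for Mcm6 and 0.16 for Mcm2 in the liver-labelled library, so none passed 2-fold there. Outside the list, Kif11, the motor that pushes spindle poles apart, had ratios of -1.70 and -2.28, and Aurkb, the kinase of the chromosomal passenger complex, had ratios of -1.44 and -1.74.

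Granule protease transcripts went the same way. Mpo was at 628, 612 and 297 CPM and at 957, 940 and 221 CPM, with log2 ratios of -1.08 (-1.33 to -0.84) and -2.11 (-2.37 to -1.86). Elane, neutrophil elastase, was at 513, 451 and 134 CPM and at 761, 673 and 221 CPM. Ctsg, cathepsin G, was at 736, 593 and 187 CPM and at 894, 989 and 357 CPM. Prtn3, proteinase 3, was at 2626, 1940 and 1155 CPM and at 2911, 2721 and 1261 CPM. Each high dose level of these 4 genes was more than 2-fold below the vehicle, while no low dose level was 2-fold away from it. Of 6 tested progenitor genes 4 were lower at the high dose in the liver-labelled library and 5 in the spleen-labelled library, with medians of -1.13 and -1.30, beside 4.3% and 4.36% of all tested genes lower, and 0 passed 2-fold at the low dose.

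Most high dose UMIs of Mpo lay in 1 barcode, although 18 of 21 and 33 of 39 high dose monocytes had an unthinned UMI of at least 1 of the 4 genes. In the spleen-labelled library 1 high dose barcode held 76% of the Mpo UMIs, and in the liver-labelled library 1 held 54%. Without the barcode with the most UMIs of the gene in each group, the ratios of Mpo were -1.89 and -3.78 and those of Ctsg -4.27 and -2.29. Among barcodes with an Mki67 or Top2a UMI, Elane was at 638, 611 and 197 CPM in the liver-labelled library and 1088, 952 and 516 CPM in the spleen-labelled library, and Ctsg was at 921, 816 and 275 CPM and at 1297, 1408 and 881 CPM. So within these barcodes, too, the high dose level was the lowest.

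The promoters of Top2a, Cdk1 and Kif11 are shown because most cell cycle genes were lower at the high dose in the spleen-labelled library. The sequences are the 100 bases before the RefSeq start on GRCm38.p6, in the direction of the gene. Capitals mark TTTGAA, the core of the element bound by the cell cycle repressor complex DREAM (CHR), and CCAAT, the motif of the factor NF-Y, on either strand. Top2a lies on the minus strand (chr11:99024190-99024289), Cdk1 on the minus strand (chr10:69352913-69353012) and Kif11 on the plus strand (chr19:37376282-37376381).
Top2a: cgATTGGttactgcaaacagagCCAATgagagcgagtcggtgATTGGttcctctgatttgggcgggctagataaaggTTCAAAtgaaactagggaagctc
Cdk1: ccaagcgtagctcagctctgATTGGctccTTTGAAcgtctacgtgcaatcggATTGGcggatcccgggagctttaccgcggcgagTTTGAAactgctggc
Kif11: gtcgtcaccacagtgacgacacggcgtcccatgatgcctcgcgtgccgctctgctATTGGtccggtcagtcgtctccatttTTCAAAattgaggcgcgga
TTTGAA lay 23 bases before the start of Top2a, 19 before that of Kif11, and 71 and 15 before that of Cdk1. Over windows from 250 bases before to 50 after the start, 38.1% of 21 promoters of the cell cycle list held TTTGAA and 85.7% held CCAAT, against 17.9% and 37.4% of all 32851 RefSeq promoters. The table held 20 of the 24 listed genes. A match to these letters describes the sequence and not binding. Cdk1, the kinase that drives mitosis, was named after its values were seen, at 138, 128 and 78.7 CPM and at 139, 104 and 41.5 CPM.

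Across both libraries 4463 genes were tested at the high dose. Of these, 51 were at least 2-fold lower and 33 at least 2-fold higher in both, with intervals that left out 0 in both. The lower genes were led by Ramp1, a subunit of the receptor of the neuropeptide CGRP. Ramp1 was at 106, 91.0 and 25.6 CPM in the liver-labelled library and 117, 115 and 21.5 CPM in the spleen-labelled library, with ratios of -2.05 (-2.98 to -1.26) and -2.44 (-3.35 to -1.65). Rgcc, a regulator of the cell cycle, had 65, 50 and 0 UMIs in the liver-labelled library and 67, 69 and 8 in the spleen-labelled library. Cst7, the protease inhibitor cystatin F, had 116, 57 and 4 UMIs and 58, 64 and 8, but its mean over cells in the liver-labelled library was higher at the high dose (0.81). The leading 15 also held Kif11, Ccnf, Pbk, Kif22, Cenpf, Aurkb, Knl1, Kif23 and Tyms, which act in DNA synthesis or mitosis. How many such genes were among all tested genes was not counted.

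**Figure D4:**
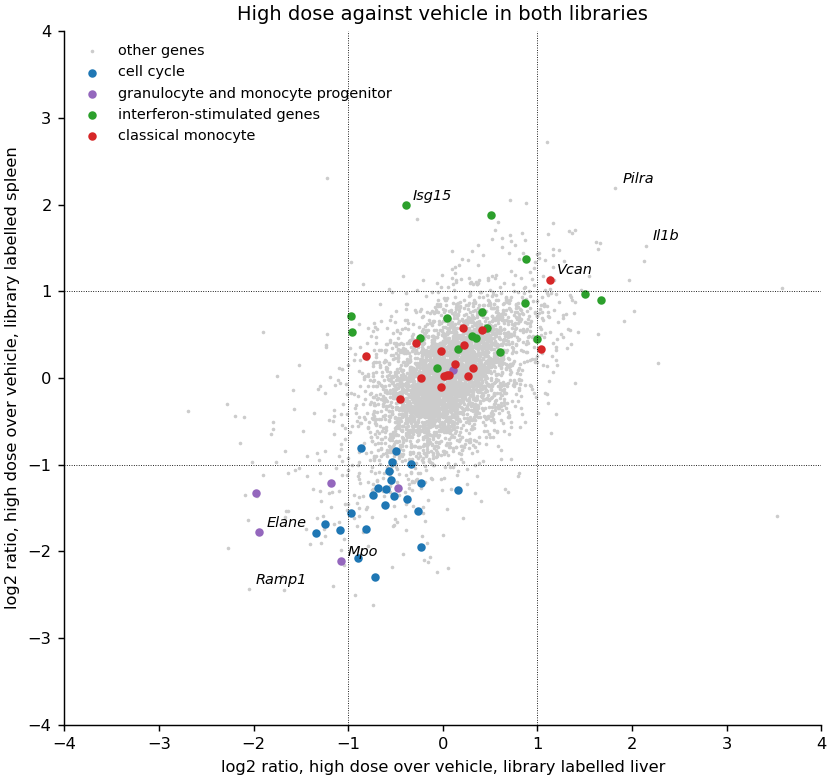
Log2 ratio of CPM, high dose over vehicle, of each gene in the liver-labelled library (x axis) and in the spleen-labelled library (y axis), with 4 gene lists in color and dotted lines at 2-fold. The plot draws 4459 genes, and a further 2 lie outside its axes. The list medians of cell cycle genes (-0.60 and -1.37) and of progenitor genes (-1.13 and -1.30) lie in the lower left, though not every member does. Pilra and Il1b lie in the upper right.

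A lower sum can come with fewer dividing barcodes or with a lower level in each, and which was the case was not tested. Among barcodes with an Mki67 or Top2a UMI, Ccna2 was at 202, 198 and 113 CPM (liver-labelled) and at 188, 174 and 96.2 CPM (spleen-labelled). Cenpf was there at 193, 226 and 72.4 CPM and at 154, 140 and 84.7 CPM. The high dose was also compared with the vehicle without any of these barcodes, which does not separate the 2 readings. That comparison used the barcodes with 0 UMIs of Mki67 and Top2a, called Mki67/Top2a-negative here. There were 40 and 11 of these in the vehicle and high dose groups of the liver-labelled library and 36 and 25 in the spleen-labelled library. With the minimum of 50 UMIs, 70 genes were higher and 69 lower of 2209 tested in the liver-labelled library, against 170 and 275 of 6388 over all monocytes. The spleen-labelled library had 59 and 28 of 2179, against 148 and 197 of 4520. Fewer barcodes leave fewer genes above the minimum, so these counts are not to be compared without the numbers tested. Of the log2 ratios named here for both doses and libraries, 422 could be computed in these barcodes. Of 124 that had been past 2-fold, 70 remained so and 9 had the opposite sign. Sign changes among the smaller ratios were not counted. Vcan went to -0.054 in the liver-labelled library and 0.98 in the spleen-labelled library.

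Apoe was lower at the high dose in this comparison as well. It encodes apolipoprotein E, a lipid carrier of macrophages and monocytes, and was at 1032, 968 and 423 CPM in the liver-labelled library and at 1667, 689 and 623 CPM in the spleen-labelled library. The log2 ratios of high dose to vehicle were -1.29 (-1.49 to -1.09) and -1.42 (-1.58 to -1.27), and -1.79 and -2.25 among Mki67/Top2a-negative barcodes. Single cells differed widely, with a median of 37.4 and a highest value of 28075 CPM among the 110 vehicle monocytes of the liver-labelled library. The low dose was near the vehicle in the liver-labelled library (-0.09) and near the high dose in the spleen-labelled library (-1.28).

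Of the genes higher at the high dose in both libraries, the first by the smaller of its ratios were Gzma and Ccl5, which lay in few barcodes. Gzma, granzyme A of cytotoxic lymphocytes, had 4, 148 and 225 UMIs in the liver-labelled library and 0, 1 and 465 in the spleen-labelled library, where 1 barcode held 100% of the high dose UMIs after rounding. Barcodes with at least 10 UMIs of cytotoxic genes numbered 0, 2 and 3 in the liver-labelled library and 1, 1 and 1 in the spleen-labelled library, and those with plasma cell genes 2, 2 and 0 and 0, 0 and 0. Without them the ratios of Gzma and Ccl5 in the liver-labelled library were 0.60 and -0.21. The 3 high dose barcodes of the liver-labelled library had 0 UMIs of F13a1 and Ms4a4c and 0 of Lyz2, the lysozyme gene of myeloid cells. The sum over 8 listed natural killer cell genes was 9.85, 207 and 706 CPM and 24.7, 28.9 and 1111 CPM, while that over 10 T cell genes was 8.20, 7.28 and 33.4 CPM and 3.29, 0.759 and 16.9 CPM.

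Pilra followed. It encodes an inhibitory receptor of myeloid cells (ENSMUSG00000046245, chr5:137821952-137836281, minus strand), and was at 29.5, 44.4 and 104 CPM in the liver-labelled library and 33.7, 49.4 and 154 CPM in the spleen-labelled library. The log2 ratios of high dose to vehicle were 1.82 (1.30 to 2.32) and 2.19 (1.65 to 2.75). The barcode with the most Pilra UMIs held 9%, 10% and 17% of them in the liver-labelled library and 10%, 8% and 7% in the spleen-labelled library. In Mki67/Top2a-negative barcodes the ratios were 2.40 (1.62 to 3.20) and 1.94 (1.18 to 2.77). The low dose lay between the vehicle and the high dose in both libraries.

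Il1b (ENSMUSG00000027398, chr2:129364570-129371139, minus strand), the inflammatory cytokine interleukin-1 beta, had a higher summed level at both doses. It was at 18.7, 112 and 82.6 CPM in the liver-labelled library and at 104, 305.2 and 298 CPM in the spleen-labelled library. The ratios to the vehicle were 2.14 (1.53 to 2.74) and 1.53 (1.19 to 1.86) at the high dose and 2.58 (2.14 to 3.05) and 1.56 (1.27 to 1.86) at the low dose. Thinned to 1000 UMIs per barcode, 3.64% (1.00 to 9.05), 13% (5.37 to 24.9) and 9.52% (1.17 to 30.4) of the monocytes of the liver-labelled library had an Il1b UMI, and 7.14% (2.36 to 15.9), 17.6% (9.46 to 28.8) and 7.69% (1.62 to 20.9) of those of the spleen-labelled library. The thinned intervals overlapped. Unthinned, the shares were 15.5% (9.27 to 23.6), 38.9% (25.9 to 53.1) and 38.1% (18.1 to 61.6), and 22.9% (13.7 to 34.4), 36.8% (25.4 to 49.3) and 41.0% (25.6 to 57.9), where the vehicle and low dose intervals of the liver-labelled library did not overlap, although the low dose monocytes had the lower median depth. T cells gave 1.01%, 1.17% and 0.508%, and 0 of 32, 0 of 65 and 0 of 178, which allow shares of up to 9.38%, 4.62% and 1.69%. Before thinning the vehicle T cells had a median of 4811 UMIs in the liver-labelled library and its vehicle monocytes 23366. Neutrophils held Il1b at 615 and 1378 CPM in the 2 libraries, and their part in the monocyte levels was not tested. In Mki67/Top2a-negative barcodes the high dose ratios were 2.79 and 0.54 and the low dose ratios 2.91 and 1.63. Of the 17 listed inflammatory cytokine genes, 3 and 5 were tested at the high dose, and 1 and 2 were higher, beside 2.66% and 3.27% of all tested genes. With the low dose 2 of 4 were higher in each library, beside 1.01% and 0.693%, namely Il1b and Il1r2, the decoy receptor of interleukin-1, whose ratios were 1.62 and 1.18. That of Il1r2 was -0.33 in the Mki67/Top2a-negative barcodes of the liver-labelled library.

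Lcn2, the iron-sequestering protein lipocalin-2, was at 411, 870 and 962 CPM in the liver-labelled library and at 577, 915 and 1610 CPM in the spleen-labelled library, highest at the high dose in both. The ratios were 1.23 (1.07 to 1.38) and 1.48 (1.34 to 1.62). S100a8 and S100a9 encode calprotectin, the calcium-binding protein of neutrophils and classical monocytes, and the rule limited their sum. S100a8 was at 4985, 6750 and 10748 CPM and at 5927, 6880 and 9717 CPM, and S100a9 was at 4319, 5332 and 9874 CPM and at 5029, 6013 and 6315 CPM. The S100a8 ratios were 1.11 and 0.71. With a limit of 5% on the sum of both genes the ratio of S100a8 was 0.26 in the liver-labelled library and 0.63 in the spleen-labelled library. It was 1.99 and 1.27 in Mki67/Top2a-negative barcodes.

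These genes are also abundant in neutrophils. Over 15 listed neutrophil genes the summed level was 10188, 13590 and 22335 CPM in the liver-labelled library and 12060, 14293 and 18174 CPM in the spleen-labelled library, with S100a8 the most abundant throughout. These sums rest largely on S100a8 and S100a9, whose sum the rule limited, so they describe the chosen barcodes. At the high dose 6 of 10 tested genes of the list were higher in the liver-labelled library, S100a8 and S100a9 among them, and 1 of 6 in the spleen-labelled library, beside 2.66% and 3.27% of all tested genes, and in the latter Retnlg, a secreted neutrophil protein gene, was lower and 1 vehicle barcode held 82% of its UMIs. The defining neutrophil marker Ly6g had a UMI in 4, 4 and 2 monocytes of the liver-labelled library and 1, 1 and 0 of the spleen-labelled library. Whether RNA of neutrophils had a part in the levels of Lcn2 and S100a8 was not tested.

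Further genes past 2-fold at the high dose in both libraries were Ltb, Il2rg, Spp1, Dok2, Hip1 and Prkcb. Ltb, the membrane subunit lymphotoxin beta, was at 36.8, 53.1 and 116 CPM and at 34.5, 52.4 and 102 CPM, with ratios of 1.66 (1.18 to 2.13) and 1.55 (0.97 to 2.15). Il2rg, the shared gamma chain of interleukin receptors, had ratios of 1.64 and 1.49. Spp1, the secreted phosphoprotein osteopontin, was at 79.4, 64.8 and 209 CPM and at 104, 106 and 340 CPM. Dok2, an adaptor that damps tyrosine kinase signals, had ratios of 2.13 and 1.35, Hip1, an endocytic adaptor, 1.17 and 1.49, and Prkcb, a protein kinase C, 1.55 and 1.18. In Mki67/Top2a-negative barcodes, the ratios of Ltb were 1.22 and 1.07, those of Spp1 0.77 and 1.36 and those of Hip1 1.45 and 1.04.

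Some ratios shrank there. Marcks, a membrane-bound kinase substrate, had 1.28 and 1.35 over all monocytes and 0.60 and 0.58 in those barcodes. Marcks was also higher at the low dose, with ratios of 1.20 and 1.02. Rhoq, a small GTPase, had 1.62 and 1.57 over all monocytes and went to -0.48 in those barcodes of the liver-labelled library.

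Of the 14 adhesion genes 12 and 11 were tested at the high dose, of which 2 and 2 were higher and 0 lower, with medians of 0.68 and 0.43, beside 2.66% and 3.27% of all tested genes higher. Without barcodes of cytotoxic or plasma cell genes the counts were 1 of 12 higher in the liver-labelled library and 3 of 11 higher and 1 lower in the spleen-labelled library. Itgam encodes CD11b, the integrin chain on which the beads named in the methods bind cells. It was at 128, 229 and 283 CPM in the liver-labelled library and at 158, 209 and 312 CPM in the spleen-labelled library, with ratios of 1.15 (0.86 to 1.43) and 0.98 (0.69 to 1.28). Its partner chain Itgb2 was at 150, 194 and 283 CPM and at 140, 188 and 327 CPM, with ratios of 0.92 (0.64 to 1.19) and 1.23 (0.93 to 1.53). The order was vehicle, low dose and high dose for each gene in both libraries.

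**Figure D5:**
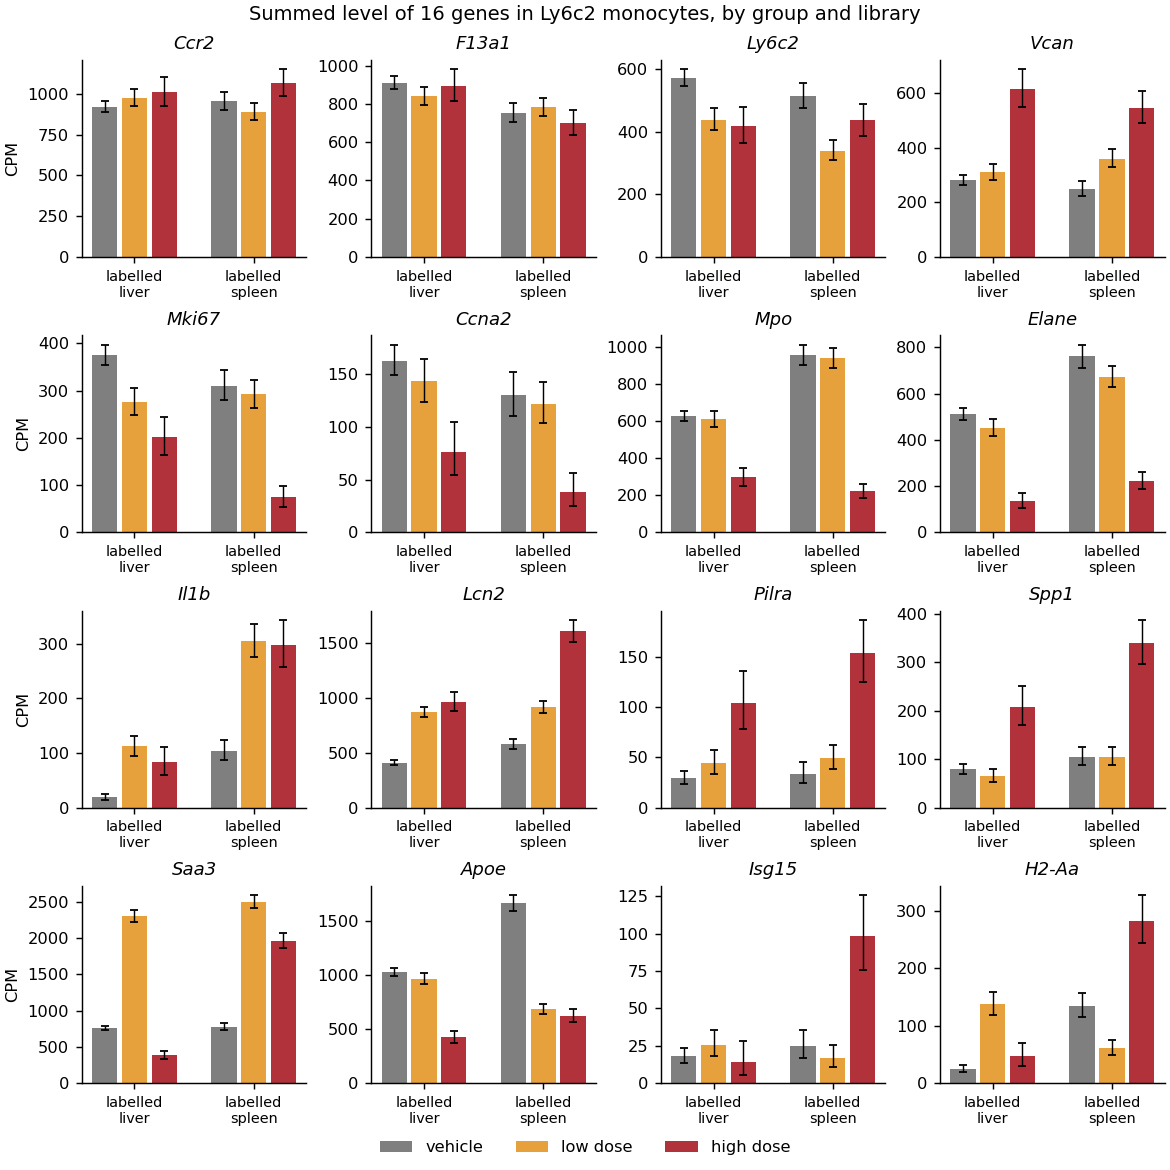
Summed level of 16 genes in CPM in the Ly6c2 monocytes of each group and library, with exact 95% Poisson intervals as error bars. Ccr2 and F13a1 stayed level, while at the high dose Mki67, Ccna2, Mpo, Elane and Apoe were lowest and Pilra, Lcn2 and Spp1 highest in both libraries. For Saa3, Isg15 and H2-Aa the order of the groups was not the same in both libraries, which was not tested.

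At the high dose more interferon-stimulated genes passed 2-fold in the spleen-labelled library, and the difference between libraries was not tested. Type I interferon signals through STAT factors to switch on genes such as Isg15, a ubiquitin-like modifier, and Irf7, a factor that amplifies the response, while interferon-gamma switches on guanylate-binding proteins such as Gbp2. Of 38 listed interferon-stimulated genes, 18 were tested in the liver-labelled library and 21 in the spleen-labelled library at the high dose. In the first 2 were higher and 0 lower with a median of 0.38, beside 2.66% of all tested genes higher, and in the second 5 were higher and 0 lower with a median of 0.72, beside 3.27%. Of the interferon-gamma and GBP genes 4 and 8 were tested, with 2 and 5 higher and medians of 0.99 and 1.08. Isg15 was at 18.1, 25.5 and 13.8 CPM in the liver-labelled library, and at 24.7, 16.7 and 98.4 CPM in the spleen-labelled library, where its ratio was 2.0 (1.35 to 2.67). Irf7 was at 24.6, 24 and 45.2 CPM and at 53.5, 26.6 and 138 CPM. Gbp2 was at 12.1, 9.46 and 3.93 CPM, from 37, 13 and 2 UMIs, and at 39.5, 13.7 and 115 CPM.

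Both list medians were below 0 at the low dose in each library. In the spleen-labelled library, where 0.584% of all tested genes were lower, the counts were as follows. Of 15 tested interferon-stimulated genes 3 were lower and 0 higher with a median of -0.59, and of 5 interferon-gamma and GBP genes 2 were lower with a median of -0.77. Irf7 had a ratio of -1.01 (-1.64 to -0.39) and Gbp2 one of -1.53 (-2.40 to -0.72). Rtp4, an interferon-stimulated chaperone gene under the minimum of 50, had 42 UMIs in the vehicle and 5 in the low dose group. In the liver-labelled library 0 of 22 and 0 of 6 genes of these lists passed 2-fold at the low dose, with medians of -0.12 and -0.20. Among Mki67/Top2a-negative barcodes of the spleen-labelled library, the high dose ratio of Isg15 was 1.32 and that of Irf7 0.53 (-0.02 to 1.10).

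The 100 bases before the start of Isg15, on the minus strand (chr4:156200819-156200918), and of Gbp2, on the plus strand (chr3:142620563-142620662), are shown because these were among the higher genes of the lists in the spleen-labelled library. Capitals mark GAAA, any 2 bases and GAAA again, on either strand, the core of the interferon-stimulated response element.
Isg15: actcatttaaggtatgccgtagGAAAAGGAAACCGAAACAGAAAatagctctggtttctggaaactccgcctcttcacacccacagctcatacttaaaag
Gbp2: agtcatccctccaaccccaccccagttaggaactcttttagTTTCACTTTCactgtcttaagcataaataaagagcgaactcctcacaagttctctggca
Isg15 held 3 overlapping matches, from 78, 72 and 66 bases before its start, and Gbp2 held 1, from 59 bases before. Of all 32851 promoters 3.44% held the motif. The RefSeq table held promoters of only 27 of the 38 interferon-stimulated genes and 14 of the 22 interferon-gamma and GBP genes. This is under 80% of each list, so no share with this motif is given for the lists. Their TTTGAA and CCAAT shares above rest on the same incomplete sets.

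Genes of the MHC class II molecules, which present peptides to CD4 T cells, had UMIs in monocytes and in T cells, which should lack them in mice. Cd74, the invariant chain, was at 106, 476 and 244 CPM in the liver-labelled library and at 442, 178 and 866 CPM in the spleen-labelled library. Over all treatments it was at 224 and 419 CPM in monocytes and at 166 and 330 CPM in T cells. After thinning to 1000 UMIs, 4.55%, 13% and 4.76% of monocytes of the liver-labelled library had a Cd74 UMI, against 6.70%, 3.16% and 3.86% of T cells, and 17.1%, 11.8% and 17.9% of those of the spleen-labelled library, against 6.25%, 3.08% and 10.7%. The intervals of monocytes and T cells overlapped in each group except the low dose group of the liver-labelled library, so most of these shares are not told apart from background. H2-Aa was at 24.3, 137 and 47.2 CPM and at 134, 60.7 and 283 CPM. One barcode held 90% of the high dose and 44% of the low dose Cd74 UMIs in the liver-labelled library, and without the top barcode of each group the high dose ratio there went from 1.20 to -1.64. Of 6 tested genes of the class II list in the spleen-labelled library, 3 were higher and 0 lower at the high dose, with a median of 1.02, beside 3.27% of all tested genes higher. The liver-labelled library had 1 of 7 higher and 1 lower, with a median of 0.70, beside 2.66% and 4.3%, and 2 of 7 higher and 1 lower without barcodes of cytotoxic or plasma cell genes. In Mki67/Top2a-negative barcodes of the spleen-labelled library the high dose ratio of H2-Aa was -0.59 (-1.01 to -0.17), the opposite sign. B cells and dendritic cells carried these genes at far higher levels, with H2-Aa at 3361 and 7558 CPM in the liver-labelled library against 58.2 in monocytes and 64.0 in T cells. The B cell list summed to 2832, 5517 and 240 CPM in the liver-labelled library and 83.1, 50.1 and 30.7 CPM in the spleen-labelled library, led by Ighm in each group, and its part in the class II levels was not tested.

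Immediate early genes respond to stress and growth signals within minutes. Of 28 listed genes 2 of 14 tested were lower and 0 higher at the high dose in the liver-labelled library, beside 4.3% of all tested genes lower, and 0 of 18 passed 2-fold in the spleen-labelled library, with medians of -0.03 and -0.40. Fos was at 261, 212 and 122 CPM in the liver-labelled library and at 1605, 1159 and 861 CPM in the spleen-labelled library, with ratios of -1.10 (-1.49 to -0.72) and -0.90 (-1.04 to -0.76). In Mki67/Top2a-negative barcodes the ratios were -2.22 and -1.36. Jun, the partner of Fos in the AP-1 factor, was at 96.8, 110 and 57.0 CPM and at 474, 418 and 297 CPM. Jun did not pass 2-fold in either library. Nfkbia, the NF-kB inhibitor that NF-kB itself induces, was at 163, 184 and 171 CPM and at 208, 233 and 261 CPM. Of the 10 NF-kB pathway genes tested in each library 1 was higher and 0 lower in each at the high dose, with medians of 0.48 and 0.65, beside 2.66% and 3.27% of all tested genes higher.

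Several genes were far higher at the high dose in the spleen-labelled library and sparse in the other, and the difference between libraries was not tested. Marcksl1, a Marcks paralog, was at 9.05, 47.1 and 232 CPM there, with a ratio of 4.68 (3.8 to 5.71), and at 9.52, 12.4 and 13.8 CPM in the liver-labelled library. Ptgs2, which makes prostaglandins, had 15, 23 and 45 UMIs in the spleen-labelled library and 0, 1 and 0 in the other. They came from few cells, since the high dose UMIs lay in 12 barcodes for Marcksl1 and 10 for Ptgs2 of 39. Serpina3g, a protease inhibitor gene, had 187 high dose UMIs in 9 barcodes, 64% of them in 1, and Clu, clusterin, had 406, of which 99% lay in 1.

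Of the hypoxia and glycolysis genes 5 of 15 tested were higher and 0 lower at the high dose in the spleen-labelled library, with a median of 0.53, where 3.27% of all tested genes were higher. The liver-labelled library had 0 of 14 higher and 2 lower, with a median of 0.03, where 4.3% of all tested genes were lower. Bnip3, a mitochondrial protein induced by low oxygen, was at 16.4, 28.1 and 81.5 CPM in the spleen-labelled library and at 18.4, 21.1 and 7.87 CPM in the liver-labelled library, the last from 4 UMIs. Hilpda, a lipid droplet protein gene, had 15, 34 and 53 UMIs in the spleen-labelled library, and 64% of the last lay in 1 barcode.

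Chemokine ligands passed 2-fold in both directions at the high dose in the spleen-labelled library, where 3 of 8 tested genes of the list were higher and 2 lower, with a median of 0.52, beside 3.27% and 4.36% of all tested genes. The liver-labelled library had 1 of 4 higher, Ccl5, and 0 lower, beside 2.66% and 4.3% of all tested genes, and 0 of 3 higher without barcodes of cytotoxic or plasma cell genes. The higher ones were Ccl24, an attractant of eosinophils, with a ratio of 1.51 (1.04 to 1.99), Ccl5 and Cxcl9, an attractant of T cells, of whose 105 high dose UMIs 64% lay in 1 barcode. Without those barcodes 2 of 7 were higher and 2 lower in the spleen-labelled library. Ccl3 and Ccl4, which attract monocytes and lymphocytes, were the lower ones. Ccl3 had 139, 221 and 11 UMIs there, a ratio of -2.76 (-3.79 to -1.87), and Ccl4 had 75, 89 and 2, a ratio of -4.33 (-7.40 to -2.42). Cxcl2, an attractant of neutrophils, was at 444, 507 and 281 CPM. Ccl3 in the liver-labelled library had 27, 10 and 8 UMIs and Cxcl2 had 6, 1 and 3, so the comparison could not be made there. Cxcr4, the receptor that holds cells in the marrow, was at 79.1, 62.6 and 70.8 CPM in the liver-labelled library and at 73.2, 50.9 and 27.7 CPM in the spleen-labelled library.

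FACT, the histone chaperone that curaxins trap on chromatin, consists of the products of Ssrp1 and Supt16. Ssrp1 was at 140, 124 and 104 CPM and at 161, 137 and 93.8 CPM, with ratios of -0.43 (-0.87 to -0.01) and -0.78 (-1.22 to -0.36). Supt16 was at 168, 138 and 187 CPM and at 140, 131 and 114 CPM. Ssrp1 was lowest at the high dose in both libraries, and in Mki67/Top2a-negative barcodes its ratios were -0.09 and 0.02, the first with an interval of -1.53 to 1.14. Zbp1, a sensor of Z-form nucleic acids, was at 53.2, 39.3 and 70.8 CPM and at 79.8, 32.7 and 135 CPM, highest at the high dose and lowest at the low dose in both. Of 7 genes tested in each library from the list of FACT, Z-nucleic acid sensing and necroptosis, 0 passed 2-fold at the high dose in the liver-labelled library and 1, Adar, an RNA-editing enzyme, was lower in the spleen-labelled library, at -1.20 (-2.36 to -0.19), beside 4.36% of all tested genes lower. There 1 of 7, Zbp1, was lower at the low dose, at -1.29 (-1.84 to -0.76), beside 0.584%, and 0 of 8 passed 2-fold in the liver-labelled library. Of the p53 target genes 0 of 6 and 0 of 4 passed 2-fold at the high dose, and at the low dose 1 of 8, Trp53inp1, was higher in the liver-labelled library, beside 1.01% of all tested genes, and 0 of 7 passed in the other. Without barcodes of cytotoxic or plasma cell genes it was 0 of 6.

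The following other genes that the study discusses for myeloid cells did not pass 2-fold where they had at least 50 UMIs. Wfdc17, a secreted protein gene, was at 1014, 1112 and 1161 CPM and at 1115, 877 and 1362 CPM, and Fxyd5, a regulator of ion transport, was at 678, 769 and 746 CPM and at 807, 726 and 1041 CPM. Cd84, a receptor of the SLAM family, was at 37.1, 31.3 and 62.9 CPM and at 43.6, 30.4 and 73.8 CPM, highest at the high dose in both. Tuba1b, a tubulin gene, was at 588, 539 and 464 CPM and at 587, 614 and 295 CPM, a ratio of -0.99 (-1.23 to -0.76) in the spleen-labelled library. Cebpe, a factor of granulocyte maturation, had 60, 17 and 11 UMIs and 13, 25 and 11. Csf1 had 9, 7 and 0 UMIs and 2, 0 and 6.

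Several further lists were counted at the high dose, beside 2.66% and 3.27% of all tested genes higher. Of 20 listed suppressive effectors of myeloid cells, 4 of 8 tested were higher in the liver-labelled library (among them Lgals9, S100a8 and S100a9, of which the rule limits the last pair) and 3 of 11 in the spleen-labelled library (among them Ptgs2), with 0 lower. Of 8 chemoattractant receptors tested in each, 2 were higher in the first and 3 higher and 1 lower in the second, where 4.36% of all tested genes were lower. Without barcodes of cytotoxic or plasma cell genes the first had 1 of 7 higher. Klf4, a factor that drives monocyte differentiation, was at 162, 147 and 76.7 CPM and at 120, 143 and 70.7 CPM, and Cebpa, the factor that commits progenitors to the myeloid fate, was at 62.4, 44.4 and 45.2 CPM and at 66.6, 41.8 and 26.1 CPM. Both were lowest or near lowest at the high dose, though Klf4 had a ratio of 0.024 in Mki67/Top2a-negative barcodes of the liver-labelled library. Of the MHC class I genes 0 of 18 and 1 of 16 were higher and 0 lower, and of the 6 NADPH oxidase genes, which make reactive oxygen, 0 passed 2-fold in either library. Markers of further cells that the isolation could carry along are given as sums over each list. The 4T1 epithelial genes were at 2.30, 4.37 and 3.93 CPM and at 4.11, 12.9 and 64.6 CPM, highest at the high dose of the spleen-labelled library. Hepatocyte genes were at 125, 131 and 118 CPM, with Trf alone above 0, and at 180, 103 and 229 CPM, led by Trf, the transferrin gene. Endothelial genes were at 19.0, 18.2 and 15.7 CPM and at 15.6, 79.0 and 16.9 CPM, and erythroid genes at 45.3, 57.5 and 51.1 CPM and at 16.4, 19.7 and 36.9 CPM. Macrophage genes were at 191, 157 and 328 CPM and at 275, 244 and 581 CPM, led by Spp1 at both doses. The part of macrophages in the Spp1 level was not tested. Platelet genes were at 0.985, 0.728 and 0 CPM and at 4.11, 4.56 and 29.2 CPM.

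At the low dose fewer genes passed 2-fold than at the high dose. In the liver-labelled library 70 were higher and 61 lower of 6908, and in the spleen-labelled library 38 and 32 of 5482, against 170 and 275 of 6388 and 148 and 197 of 4520 at the high dose. The doses share the vehicle cells, and the high dose groups held the fewest UMIs, so their ratios have the widest intervals. Of the 275 lower genes of the liver-labelled library at the high dose, 190 had an interval that left out 0. Saa3, an acute phase protein gene, was named after its values were seen. It was at 761, 2306 and 390 CPM in the liver-labelled library and 777, 2503 and 1966 CPM in the spleen-labelled library, so it was higher than the vehicle at the low dose in both, with ratios of 1.60 and 1.69, and at the high dose in the spleen-labelled library only. In Mki67/Top2a-negative barcodes the low dose ratios were 0.25 and 1.76. Fpr2, a receptor of formylated and serum amyloid peptides, had low dose ratios of 1.79 (1.32 to 2.28) and 0.99 (0.38 to 1.62). Chil3, a chitinase-like protein of myeloid cells, had ratios of 1.02 and 0.22.

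The vehicle monocytes were also compared between the libraries, for single genes picked after their values were seen. Cxcl2 was at 1.97 CPM in the liver-labelled library and 444 CPM in the spleen-labelled library, a log2 ratio of 7.82 (6.69 to 9.27). Fos was higher by 2.62 (2.50 to 2.74), Jun by 2.29, Egr1, another immediate early factor, by 4.34, and Nr4a1, an early response nuclear receptor, by 3.8. Osm, the cytokine oncostatin M, was higher by 5.11 and Cd14, the co-receptor of lipopolysaccharide, by 2.21. All of these were higher in the spleen-labelled library. Ccr2, Ly6c2 and Csf1r differed by 0.05, -0.15 and 0.62 (0.37 to 0.86). The rule used these 3 genes to choose the barcodes, so their levels describe the chosen cells and are no reference for the others. The log2 ratios were 0.36 for Nfkbia, 0.38 for Irf1, an interferon response factor, 0.24 for Tgfb1, a growth factor of immune control, and 0.03 for Saa3. Igkc and Ighm, the immunoglobulin genes, were lower there by 8.12 and 5.46 on the log2 scale, and 2 vehicle barcodes of the liver-labelled library with plasma cell genes held most of their UMIs. The tissue, the digestion and the library cannot be told apart in this comparison.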

How the data were processed

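The deposited files were count matrices, per the file headers written by Cell Ranger 5.0.0, of UMIs per gene and hashtag in each barcode. The submitters' processing notes name Cell Ranger 6.0.0, Seurat and mm10. The values were raw counts, which were summed over the barcodes of a group and divided by the group's gene UMIs to give CPM. Gene positions came from GENCODE M21 (GRCm38), in which 32158 of 32285 identifiers matched, and promoter sequences from RefSeq (GRCm38.p6).

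Monocytes and other classes were gated by UMI counts in each library on its own. Since 1 pooled sample stood for each group, no test was run. Log2 ratios of CPM carry exact conditional binomial 95% intervals, shares carry Clopper-Pearson intervals and levels carry Poisson intervals, all of which cover counting error only. A gene was tested when it had at least 50 UMIs over both groups and called when it was at least 2-fold away. A gene with 0 UMIs in 1 group was set against 3 counts over that group. Precision follows the depth given in the results.

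Named genes were the markers and monocyte lists, the 10 highest and 10 lowest ratios of each library, up to 15 genes past 2-fold in both libraries each way, up to 4 members of each list by abundance or size of ratio, and genes that the study discusses for myeloid cells. Saa3 and Cdk1 fall outside. A few genes that the rule names are not reported here. The members, lists and rules were chosen with earlier results of these data known. Alternatives were another hashtag caller, stricter gates, leaving out barcodes with B cell, Ly6g or globin UMIs, other UMI minimums, other S100 limits, doublet removal with Scrublet and equal weight for each cell. Leaving out barcodes of cytotoxic or plasma cell genes, those with an Mki67 or Top2a UMI or the top barcode was added after the data were seen. Python 3.11.15, scanpy 1.11.5, scipy 1.17.1 and R 4.3.3 with Seurat 5.3.0 were used, and the scripts were tested on simulated data.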

Additional observations from a re-analysis of the deposited data

Results flagged for a closer look

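At the low dose the MHC class II genes had opposite signs in the 2 libraries, and the difference was not tested. The log2 ratio to the vehicle was 2.16 for Cd74 in the liver-labelled library and -1.31 in the spleen-labelled library. For H2-Aa it was 2.50 and -1.14, for H2-Ab1 2.45 and -1.42, and for H2-Eb1 2.31 and -2.13. In the liver-labelled library 1 low dose barcode held between 44% and 72% of the UMIs of these genes, and without the top barcode of each group the ratios there were 1.70 for Cd74, 1.91 for H2-Aa, 1.03 for H2-Ab1 and 1.12 for H2-Eb1.

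At the high dose Cstdc5, a cystatin gene, had opposite signs as well, at 3.54 in the liver-labelled library and -1.59 in the spleen-labelled library, which was not tested either. Of its 207 high dose UMIs in the liver-labelled library, 93% lay in 1 barcode.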

How the results depend on the processing

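The shares kept the order of vehicle, low dose and high dose under every setting tried, but not the separation of their intervals. With at least 4 UMIs of Ly6c2 and of Csf1r plus Ccr2 they were 2.65% (vehicle) and 1.14% (low dose) in the liver-labelled library and 5.98% and 3.03% in the spleen-labelled library. With barcodes thinned to 2000 UMIs before gating they were 0.610%, 0.268% and 0.167%, and 1.87%, 1.11% and 0.619%, and the intervals of the vehicle and the high dose overlapped in both libraries. They overlapped under no other setting tried. The high dose share of the spleen-labelled library was 3.58% with HTODemux, whose interval overlapped that of the low dose, and 3.11% with the stricter filter on barcodes.

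Counts of genes past 2-fold moved with the UMI minimum, which changes how many genes are tested. At a minimum of 20 they were 435 higher and 609 lower (high dose, liver-labelled), 201 and 213 (low dose, liver-labelled), 387 and 514 (high dose, spleen-labelled) and 169 and 136 (low dose, spleen-labelled). At 100 they were 76 and 115, 33 and 16, 51 and 96, and 12 and 12 in the same order. Without barcodes of B cell, Ly6g or globin UMIs 91 genes were higher at the high dose in the liver-labelled library, and without barcodes of cytotoxic or plasma cell genes 45 were higher at the low dose there. Mki67/Top2a-negative barcodes, in which fewer genes reached the minimum, gave 70 and 69 of 2209 tested (high dose) and 38 and 30 of 2695 (low dose) in the liver-labelled library and 59 and 28 of 2179 at the high dose in the spleen-labelled library.

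Among ratios past 2-fold in the main setting, signs turned as follows, and the cause was not tested. In the liver-labelled library at the high dose, an S100 limit of 5% gave -0.79 for Cxcr2, -1.45 for Stfa2 and -0.61 for Cstdc5. Leaving out B cell, Ly6g or globin barcodes gave -1.22 for Cd74 and -0.28 for Cstdc5, and leaving out cytotoxic or plasma cell barcodes gave -0.46 for Nkg7, 1.10 for Igkc and 0.37 for Ighm. Mki67/Top2a-negative barcodes gave -0.054 for Vcan, -0.48 for Rhoq and 0.024 for Klf4, the mean over cells gave 0.81 for Cst7, and leaving out the top barcode gave -1.64 for Cd74 and -1.60 for Stfa2. At the low dose there, Igkc was -0.27 without B cell, Ly6g or globin barcodes, Nkg7 -1.41 and Igkc -1.40 without cytotoxic or plasma cell barcodes, and Jchain -8.93, Igkc -7.39 and Mzb1 -3.05 with the gate at 4 UMIs. Mki67/Top2a-negative barcodes gave -0.33 for Il1r2, -0.71 for H2-Eb1, -7.75 for Jchain, -7.85 for Igkc and -4.34 for Mzb1. In the spleen-labelled library at the high dose, H2-Aa was -0.59 in Mki67/Top2a-negative barcodes and Nkg7 -1.70 with the gate at 4 UMIs.

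Of 529 ratios 172 were past 2-fold, and only these were checked for a turned sign. HTODemux and the stricter filter on barcodes reversed 0 of them. A total without the 20 most abundant genes also reversed 0, but it shifts all ratios of a comparison alike. Scrublet left the number of monocytes of every group unchanged, so its ratios could not change. Scrublet marked 1 of 4830 barcodes of the spleen-labelled library and so did not work there, and 248 of 9591 of the other. Alternatives that left a gene under 20 UMIs gave no value. High dose values are limited by 21 and 39 cells. No paired analysis was possible because each group was 1 pooled sample in each library and the labels give no replicate numbers.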
